A study of Arabidopsis thaliana with 30 samples.

Results

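The genes described here encode the proteins that harvest light and carry out its first chemical steps in the chloroplast, and that are themselves encoded in the nucleus. They were taken by locus from the deposited table as the LHCA and LHCB antenna genes and the nuclear PSA and PSB subunit genes. The rule for membership uses no measured value, but it was set with earlier results of these data known. There were 42 of them among 38088 genes, 6 for the antenna of photosystem I (LHCI), 14 for the antenna of photosystem II with its minor antenna proteins (LHCII), 12 for subunits of photosystem I (PSI) and 10 for subunits of photosystem II (PSII).

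Messenger RNA was sequenced from seedlings of Arabidopsis thaliana, 7 days old, that had been grown on agar at 22 °C with 16 h of light and 8 h of dark. Each genotype was sampled after 85 min of heat at 44 °C, given by placing sealed plates in a water bath, and without heat (control), which gives 10 groups of 3 libraries. Mutants of SMXL genes were smxl4 smxl5 and smxl6 smxl7 smxl8, mutants of RNA decay and silencing genes were ski2 dcl4 and ski2 dcl4 dcl2, each named by the genes it carries mutations in, and the wild type was Col-0. SMXL4 and SMXL5 act in phloem formation, SMXL6, SMXL7 and SMXL8 repress strigolactone responses, SKI2 is a helicase of cytoplasmic RNA decay, and the Dicer-like proteins DCL4 and DCL2 make small RNAs. The labels name no transgene and no allele. Because SMXL5 stood at 15.0 FPKM in control libraries labelled smxl4 smxl5 and at 4.57 FPKM in Col-0 controls, those libraries are called by their label throughout. SMXL4 was also higher there, at 3.22 FPKM against 1.93 FPKM in Col-0 controls. After heat SMXL4 was lower in libraries labelled smxl4 smxl5, at 1.08 FPKM against 2.22 FPKM in Col-0 (limma's adjusted p = 0.000192). SMXL5 was then at 3.05 FPKM under that label and 3.12 FPKM in Col-0 (limma's adjusted p = 0.871). SMXL6 stood at 3.13 FPKM in smxl6 smxl7 smxl8 controls and 5.44 FPKM in Col-0 controls, and SMXL7 at 8.20 FPKM in smxl6 smxl7 smxl8 and 8.09 FPKM in Col-0. SKI2 stood at 3.35 FPKM in ski2 dcl4, 3.04 FPKM with dcl2 mutated as well and 6.41 FPKM in Col-0, all at control. DCL4 stood at 3.44 FPKM in ski2 dcl4, 2.84 FPKM with dcl2 mutated as well and 3.41 FPKM in Col-0, all at control. In these controls it was not called lower in either mutant by limma. DCL2 stood at 3.25 FPKM in ski2 dcl4 dcl2 and 5.61 FPKM in Col-0 controls. At control the transcript levels of SMXL7 and DCL4 thus do not check the labels of these mutants. After heat SMXL7 was lower in smxl6 smxl7 smxl8, at 3.19 FPKM against 8.09 FPKM in Col-0 (limma's adjusted p = 1.49e-07). DCL4 was then lower in ski2 dcl4, at 2.35 FPKM against 3.26 FPKM in Col-0 (limma's adjusted p = 0.00353). With dcl2 mutated as well it was at 2.87 FPKM after heat and not called (limma's adjusted p = 0.437). FPKM are fragments per kilobase of transcript, corrected for sequencing depth.

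Photosystem II splits water and passes electrons through the cytochrome b6f complex to photosystem I, which reduces ferredoxin. Around each reaction centre, LHC proteins bind chlorophyll and carotenoids and feed excitation energy inward. The LHCA proteins serve photosystem I. LHCB1, LHCB2 and LHCB3 form the antenna trimers of photosystem II, joined to its core by the minor antenna proteins LHCB4, LHCB5 and LHCB6. The reaction centre proteins themselves are encoded in the chloroplast genome, while nearly all antenna proteins and many peripheral subunits are made from nuclear transcripts that light, the circadian clock and GLK transcription factors are known to control in leaves.

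The upstream sequences of 6 members are shown because these genes carry the patterns described below: LHCA4 and PSBQ2 as antenna and oxygen-evolving genes with a G-box, LHCB1.4 as the gene that was lowest against Col-0 in 3 genotypes, LHCB4.1 and LHCB4.3 as copies of 1 minor antenna protein that behaved differently, and PSBS as the PSII gene that was higher where most others were lower. Each is the 150 bases before the annotated gene start as RefSeq annotates it on assembly TAIR10.1, read 5′ to 3′ on the gene's strand, with capitals for matches to the motifs searched. LHCA4 lies at chr3:17495034-17495183 on the minus strand, LHCB1.4 at chr2:14524457-14524606 on the plus strand, LHCB4.1 at chr5:208716-208865 on the plus strand, LHCB4.3 at chr2:16745478-16745627 on the plus strand, PSBQ2 at chr4:2673244-2673393 on the minus strand and PSBS at chr1:16870071-16870220 on the plus strand.
LHCA4: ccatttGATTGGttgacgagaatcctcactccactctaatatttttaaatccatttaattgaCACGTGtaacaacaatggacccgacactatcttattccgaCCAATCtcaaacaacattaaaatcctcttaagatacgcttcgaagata
LHCB1.4: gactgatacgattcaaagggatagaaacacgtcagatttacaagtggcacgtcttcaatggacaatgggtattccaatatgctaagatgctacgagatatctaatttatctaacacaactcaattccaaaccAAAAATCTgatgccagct
LHCB4.1: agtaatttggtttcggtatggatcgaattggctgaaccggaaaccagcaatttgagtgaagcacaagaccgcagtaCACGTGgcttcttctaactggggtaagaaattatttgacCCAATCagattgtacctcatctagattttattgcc
LHCB4.3: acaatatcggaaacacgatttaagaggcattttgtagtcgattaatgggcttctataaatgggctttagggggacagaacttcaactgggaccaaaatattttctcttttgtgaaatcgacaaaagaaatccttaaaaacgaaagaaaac
PSBQ2: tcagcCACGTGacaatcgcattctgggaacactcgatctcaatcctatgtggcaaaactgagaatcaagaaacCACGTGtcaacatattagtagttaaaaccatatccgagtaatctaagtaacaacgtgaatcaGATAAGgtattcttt
PSBS: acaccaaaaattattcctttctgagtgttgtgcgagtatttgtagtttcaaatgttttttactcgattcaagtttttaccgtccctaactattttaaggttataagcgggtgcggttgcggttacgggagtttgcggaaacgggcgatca

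Motifs were searched on both strands in the 250 bases before each of 27443 annotated gene starts, and all 42 members had such a window. The G-box CACGTG was found before 8 members (19.05%, against 6.486% of all windows), among them LHCA4, LHCB4.1 and both PSBQ genes. The I-box GATAAG was found before 9 members (21.43% against 12.29%), and CCAATC, which holds the core of a CCAAT box, before 11 (26.19% against 10.23%). Those 11 were 3 of 6 LHCI genes, 7 of 14 LHCII genes, 1 of 10 PSII genes (PSBQ2) and 0 of 12 PSI genes. The CCA1 site AAAAATCT stood before 5 members (11.9% against 6.687%), LHCB1.4 and LHCA4 among them, and its second form AACAATCT before PSAE2 alone (2.381% against 1.829%). The evening element AAAATATCT stood before LHCA5 alone (2.381% against 2.361%), and the heat shock element core GAANNTTC before LHCB5 alone (2.381% against 9.551%). None of these letters stood in the 250 bases before LHCB4.3 or PSBS. These matches describe letters in a window and were not tested as binding sites.

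Photosystem and antenna transcripts were among the most abundant in the seedlings. Of the 42 members, 38 were among the 100 genes with the highest mean in Col-0 control libraries. LHCB1.3 and LHCB1.5, whose listed values are described below, are left out of the order given here, and LHCB1.5 was listed above PSBR. PSBR, a small PSII protein that helps to hold the oxygen-evolving complex, was first among the rest at 8723 ± 965 FPKM (SD, n = 3, as for each mean below). It was followed by LHCB1.2 at 6107 ± 529.9, LHCA1 at 6053 ± 498, LHCB1.1 at 5437 ± 373 and LHCA4 at 5408 ± 389 FPKM. The libraries of PSBR lay above those of the others, while each of the last 4 overlapped its neighbours in the order. At the low end stood PSAG at 929.7 ± 59.4 and PSBS at 888 ± 30.7 FPKM. Far below these came the rarer antenna genes LHCA5 at 131 ± 7.03, LHCA6 at 80.5 ± 8.73 and LHCB4.3 at 14.4 ± 2.34 FPKM, and their libraries did not overlap.

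Of the members, 40 were measured above 1 FPKM in every library. LHCB1.3 (AT1G29930) was listed at 0 in all 30 libraries. LHCB1.5 (AT2G34420) was listed at 0 in all 9 heat libraries of ski2 dcl4, ski2 dcl4 dcl2 and Col-0 and above 0 in the other 21. It stood at 19975, 16772 and 20224 FPKM in heated libraries labelled smxl4 smxl5, and at 16807, 17641 and 15241 FPKM in heated smxl6 smxl7 smxl8. In Col-0 controls it stood at 16879, 15339.5 and 14159 FPKM. Libraries of 1 group were either all at 0 or all far above it. LHCB1.3 is 96.14% identical in coding sequence to LHCB1.1 and 96.39% to LHCB1.2, and LHCB1.5 is 91.42% identical to LHCB1.4, so reads of these copies can be shared and such zeros may be failed estimates. Both genes are listed here only, and the remaining 40 members (6 LHCI, 12 LHCII, 12 PSI and 10 PSII genes) are compared below.

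Libraries summed to between 931940 and 1099790 FPKM after heat and to between 735524 and 904077 FPKM at control, without overlap, so that heat comparisons depend on how libraries are scaled. From the smallest steps of the values, 14.6 to 24.3 reads per kilobase of transcript were estimated to lie behind each FPKM, so that members other than LHCB4.3 stood far above counting error. Separate cultures are not stated for the libraries of a group. The p-values below set differences of group means against the spread among these libraries only. That spread was estimated over all 10 groups, unless a fit of only the groups compared is named. smxl6 smxl7 smxl8 control replicate 2 stood apart from its group, with 140284 FPKM summed over the 40 members against a lowest value of 96834.5 FPKM in that group. Of the members, 17 overlap another annotated gene in the RefSeq annotation, 2 of them on the same strand, and whether the counting used strand is not given in the sources used here. The labels give seedlings as the source, with no dissection or sorting, so fewer cells of a type and less RNA per cell cannot be told apart in any comparison below.

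Transcripts of the 40 compared genes were higher after heat in every genotype. In Col-0 all 40 members rose (limma on log2(FPKM + 1), adjusted p under 0.05 over the 21531 genes tested, where 29.9% of genes rose), with a median log2 change of 0.67 against 0.01 for all genes. The summed LHCI transcripts of Col-0 stood at 31861 ± 2513 FPKM after heat and at 19946 ± 1632 FPKM at control. The LHCII sum over the 12 compared genes was 65615 ± 5975 FPKM after heat and 42166 ± 4075 FPKM at control. With LHCB1.5, which is listed at 0 in heated Col-0, the LHCII sum was 65615 ± 5975 FPKM after heat and 57625 ± 5431 FPKM at control, with overlapping libraries. As a share of all FPKM, LHCII with LHCB1.5 was 6.26% ± 0.458 after heat and 7.03% ± 0.446 at control. The PSI sum was 48451 ± 4268 FPKM after heat and 31263 ± 2355 FPKM at control. For PSII it was 48824 ± 3550 FPKM after heat and 31359 ± 2937 FPKM at control. Without LHCB1.5, heated libraries thus stood 1.55 (PSI) to 1.60 (LHCI) times as high. Taken over all 40 members, the share of all FPKM was 18.6% ± 1.19 after heat and 15.2% ± 0.869 at control in Col-0. With all 42 members it was 18.6% ± 1.19 after heat and 17.1% ± 0.978 at control, and the libraries overlapped, so most of the difference in share rests on leaving out LHCB1.5.

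**Figure D1:**
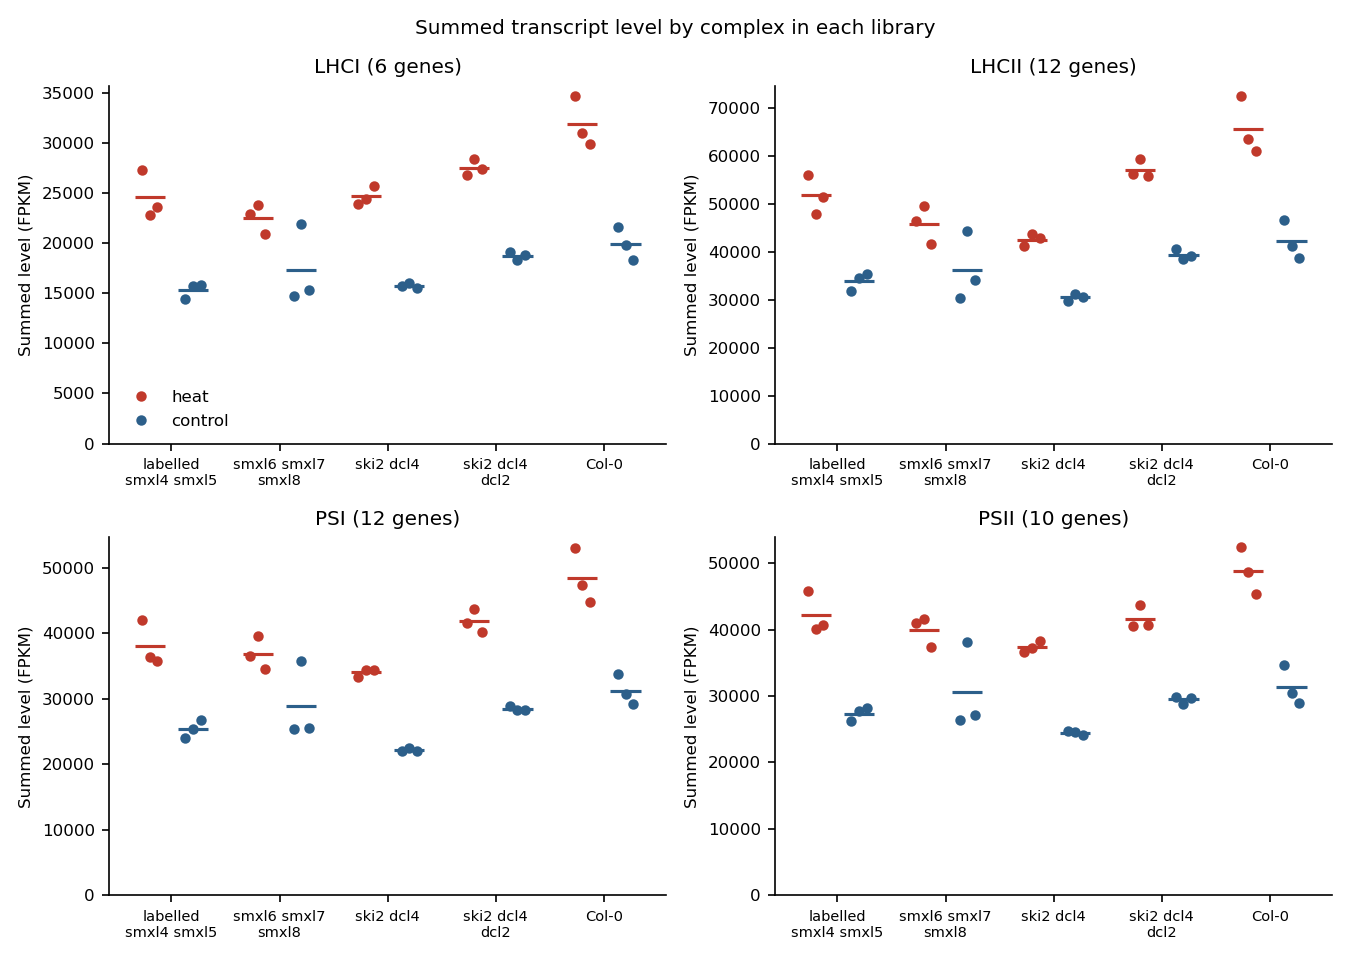
Summed FPKM of the 40 compared members by complex, with 1 point per library and a bar at the mean of 3 libraries; heat stands left of control in each genotype. In Col-0 each heat library lies above each control library in all 4 panels, and in smxl6 smxl7 smxl8 1 control library lies high, at 140284 FPKM over all 40 members.

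The rise was of like size in the 4 complexes, with Col-0 medians of 0.72 for LHCI, 0.67 for LHCII, 0.64 for PSI and 0.66 for PSII on the log2 scale. The smallest change in Col-0 was that of PSBX, a small membrane subunit of PSII, at 0.48. In 39 of 40 members the heat libraries of Col-0 did not overlap its control libraries, which held for higher values in 31.4% and for lower values in 29% of all genes tested. The exception was LHCB1.4, an LHCII trimer gene, at 8105, 4507 and 6164 FPKM after heat and 4971, 3965 and 3763 FPKM at control, where 1 heat library fell below the highest control library (log2 change 0.53, limma's adjusted p = 0.0291).

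The member of each complex that rose most in Col-0 was chosen by a set rule. LHCA3, an antenna protein that binds the long-wavelength chlorophylls of photosystem I, stood at 8509.9, 8036 and 7567 FPKM after heat and at 4941, 4590.1 and 4136 FPKM at control. No heat library overlapped a control library, and the log2 change was 0.82 ± 0.12 SE (limma's adjusted p = 4.18e-06). LHCB4.3, a rarer copy of the minor antenna protein CP29, stood at 23.2, 46.9 and 24.9 FPKM after heat and at 16.0, 11.7 and 15.5 FPKM at control. Its second heat library lay well above the other heat libraries, the groups did not overlap, and the log2 change was 1.02 ± 0.19 SE (limma's adjusted p = 8.25e-05). PSAD2, 1 of the copies of the stromal subunit that docks ferredoxin, stood at 4255, 3861 and 3583 FPKM after heat and at 2309, 2170.0 and 2068 FPKM at control. Each heat library was well above each control library, and the log2 change was 0.83 ± 0.13 SE (limma's adjusted p = 5.6e-06). PSBO2, 1 of the copies of the manganese-stabilizing protein of the oxygen-evolving complex, stood at 2347, 2533 and 2045 FPKM after heat and at 1336, 1159 and 1113 FPKM at control, with no overlap (log2 change 0.94 ± 0.11 SE, limma's adjusted p = 2.22e-07).

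The other genotypes behaved like Col-0 in direction. In the libraries labelled smxl4 smxl5, 40 of 40 members rose with heat (29.9% of all genes tested rose) with a median of 0.63, and in ski2 dcl4 39 rose (32% of all genes) with a median of 0.59. In ski2 dcl4 dcl2, 40 rose (25.8% of all genes) with a median of 0.54. In smxl6 smxl7 smxl8, 38 rose (28.7% of all genes) with the lowest median, 0.38. All 5 medians stood against 0.01 to 0.06 for all genes tested. Altogether 38 of 40 members rose in all 5 genotypes and 0 fell in any by limma's test (0 of the 40 had a negative change). Not called were LHCB1.4 in ski2 dcl4 (0.48, limma's adjusted p = 0.052) and in smxl6 smxl7 smxl8 (0.26, adjusted p = 0.298), and LHCB2.3 in smxl6 smxl7 smxl8 (0.40, adjusted p = 0.0557).

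**Figure D2:**
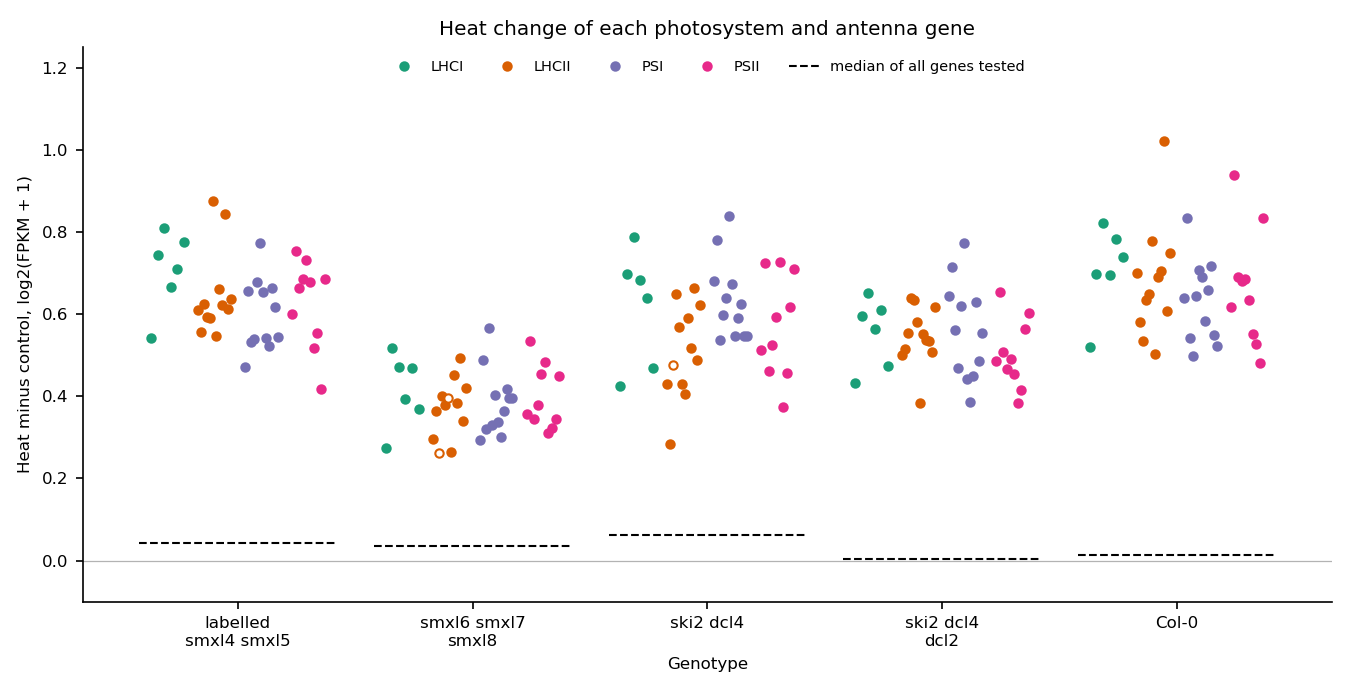
Log2 change with heat of each of the 40 members in each genotype, coloured by complex, on the log2(FPKM + 1) scale; filled points were called by limma, open points were not, and dashed lines mark the median of all genes tested. All points lie above the dashed lines, and those of smxl6 smxl7 smxl8 have the lowest median, 0.38.

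In the heated libraries labelled smxl4 smxl5, LHCB2.3 changed by 0.88, LHCB4.3 by 0.84 and LHCA3 by 0.81 on the log2 scale, the 3 largest rises there. In ski2 dcl4 these were PSAG (0.84), a PSI subunit that helps to bind its antenna, LHCA3 (0.79) and PSAD2 (0.78), and in ski2 dcl4 dcl2 PSAG (0.77), PSAD2 (0.71) and PSBO2 (0.65). In smxl6 smxl7 smxl8 they were PSAE2 (0.57), a stromal PSI subunit beside the ferredoxin site, PSBO2 (0.53) and LHCA2 (0.52). LHCA1, the LHCI gene with the highest level in Col-0 controls, was the LHCI member with the smallest rise in each of the 5 genotypes, from 0.28 in smxl6 smxl7 smxl8 to 0.54 in libraries labelled smxl4 smxl5 (0.52 in Col-0).

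Heat and control libraries of smxl6 smxl7 smxl8 overlapped for most members. There 12 of 40 members had heat libraries that did not overlap the control libraries (29.4% of all genes tested were higher without overlap), against 40 in libraries labelled smxl4 smxl5 (33.4% of all genes), 40 for ski2 dcl4 (34.1%), 40 with dcl2 mutated as well (32.6%) and 39 in Col-0. The summed transcripts of its 4 complexes stood 1.26 (LHCII) to 1.31 (PSII) times as high after heat as at control. Without its control replicate 1, 21 members rose rather than 38, and with only the libraries of these 2 groups in the fit, 2 did. For such smaller fits, here and below, no share of all genes called is given. Fewer calls among the members thus cannot be told from fewer calls among all genes. The test of the difference from the heat effect in Col-0 called 0 of 40 members by limma, where 3.89% of all genes were called lower and 1.41% higher. At an unadjusted p under 0.05 there were 13 members, a level for which no share of all genes is given here. Of the 40 differences 39 were negative, with a median of −0.29. Called members, all lower, numbered 5, 3, 2 and 1 when smxl6 smxl7 smxl8 control replicate 3, Col-0 heat replicate 3, smxl6 smxl7 smxl8 control replicate 1 or its heat replicate 2 was left out. limma also called, for libraries labelled smxl4 smxl5, for ski2 dcl4 and for ski2 dcl4 dcl2, 0 of 40 differences in heat effect from Col-0 (0, 1 and 0 at an unadjusted p under 0.05), with medians of −0.03, −0.09 and −0.13. Of all genes, 0.725%, 0.232% and 0.0372% were called higher and 1.36%, 0.139% and 0.00929% lower in these 3 tests, at an adjusted p under 0.05.

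Scaling changed how many members rose with heat, though not the direction of the median. With each library rescaled to the same total, the median of all genes shifted to between −0.26 and −0.15 with heat. Of all calls, 14.1% to 22.9% were then rises, and 40.1% to 45.6% with the same upper quartile, against 51.5% to 57.5% without rescaling. The member median became 0.24 with 27 of 40 called higher in libraries labelled smxl4 smxl5, and 0.13 with 7 called in smxl6 smxl7 smxl8. It was 0.24 with 25 called in ski2 dcl4, 0.32 with 33 called in ski2 dcl4 dcl2 and 0.31 with 30 called in Col-0. Of the 21531 genes tested, 1576, 2361, 2313, 2291 and 2403 were called higher in these genotypes, in the same order. Relative to the median of all genes, the members stood 0.28 to 0.57 higher after that rescaling and 0.35 to 0.66 higher without it.

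Other genes of the photosynthetic apparatus moved in the same direction with heat in Col-0, where 29.9% of all genes rose and 27.3% fell. All 12 nuclear genes for electron carriers and ATP synthase rose, with a median of 0.58, among them ATPG (0.64), a chloroplast ATP synthase subunit gene, and PETC (0.69), the Rieske protein gene of cytochrome b6f. Of 14 tested chlorophyll synthesis genes (15 listed) 11 rose and 1 fell, with a median of 0.48. CHLG, chlorophyll synthase, rose by 0.67 and CHLM by 0.69, while the fall was that of CAO (−0.54), which makes chlorophyll b and was picked out after its value was seen. Of 10 genes for antenna insertion and state transition 8 rose, with STN8, a kinase of PSII proteins, at 0.67 and ALB3, a thylakoid insertase, at 0.62. Of 6 light-harvesting-like genes 4 rose, with OHP2 at 0.97 and OHP1 at 0.70, both small proteins that assist PSII assembly. Of 8 chlorophyll breakdown genes 6 rose too, with PPH at 0.66 and NOL at 0.53.

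Of 8 photosynthesis regulators 2 rose and 1 fell with heat in Col-0 (29.9% of all genes rose and 27.3% fell), with a median of −0.09. In libraries labelled smxl4 smxl5, 4 of the 8 rose and 1 fell (29.9% and 24% of all genes), with a median of 0.33. The difference in heat effect from Col-0 was not called by limma for any of the 8. In Col-0 GUN1, a plastid protein of retrograde signalling, fell by 0.81 on the log2 scale, and SIG2, a plastid sigma factor, rose by 0.32. GLK1 in Col-0 averaged 99.0 ± 16.8 FPKM after heat and 110.1 ± 16.6 FPKM at control. GLK2 in Col-0 averaged 69.4 ± 6.47 FPKM after heat and 81.0 ± 21.3 FPKM at control. Neither was called (log2 changes −0.15 and −0.19, limma's adjusted p = 0.456 and 0.37). Of 10 clock genes 0 rose and 3 fell in Col-0, TOC1 by 0.66 and ELF4 by 1.21, both evening genes.

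Of 12 root markers 8 fell and 1 rose with heat in Col-0 (27.3% of all genes fell), and their summed level was 525 to 756 FPKM after heat and 1541 to 1694 FPKM at control. Most of that sum was PYK10, a root and hypocotyl glucosidase gene, without which the ranges were 61.4 to 69.9 FPKM after heat and 107 to 114 FPKM at control. Of 8 epidermis and guard cell markers 4 fell, 1 rose and 3 were not called, with sums of 278 to 342 FPKM after heat and 526 to 564 FPKM at control. None of these markers was listed at 0 in any group. Their part in the rise of the photosystem transcripts was not tested.

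Many photosystem and antenna genes were lower without heat in libraries labelled smxl4 smxl5 than in Col-0. Of 40 members 20 were lower and 1 higher (limma, where 14.8% of all genes were lower and 15.3% higher), with a median log2 difference of −0.27. The lower members were 4 of 6 LHCI, 6 of 12 LHCII, 6 of 12 PSI and 4 of 10 PSII genes. Without overlap between libraries, 28 members were lower and 2 higher (23.4% and 25.7% of all genes). Over the 40 members the sum was 101946 ± 5076 FPKM in libraries labelled smxl4 smxl5 and 124733 ± 10974 FPKM in Col-0. Without Col-0 control replicate 1, 13 were lower, and 13 were lower with only these 6 libraries in the fit.

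LHCB1.4 differed most. It stood at 1447, 1837 and 1955 FPKM in control libraries labelled smxl4 smxl5 and at 4971, 3965 and 3763 FPKM in Col-0. No library overlapped, and the log2 difference was −1.28 ± 0.20 SE (limma's adjusted p = 4.94e-05). LHCB2.3, another trimer gene, stood at 839.5, 1163 and 1195 FPKM in libraries labelled smxl4 smxl5 and at 2064, 1732 and 1576 FPKM in Col-0, again without overlap (−0.76 ± 0.17 SE, adjusted p = 0.0017 by limma). Not all antenna genes were lower. LHCB1.2, another trimer gene, was at 5393, 5754 and 5632 FPKM in those libraries and 6712, 5885 and 5725 FPKM in Col-0, which overlapped (−0.12, adjusted p = 0.435 by limma). LHCB1 copies are similar enough that reads may be shared among them, and the balance between them is uncertain for that reason.

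In the other complexes the largest falls were also clear of Col-0. LHCA2, an LHCI protein, stood at 2439, 2783 and 2726 FPKM in control libraries labelled smxl4 smxl5 and at 4099, 3646 and 3413 FPKM in Col-0 (−0.49 ± 0.11 SE, limma's adjusted p = 0.00224). PSAF, the PSI subunit that docks plastocyanin, stood at 2051, 2507 and 2766 FPKM in libraries labelled smxl4 smxl5 and at 4056, 3833 and 3552 FPKM in Col-0 (−0.65 ± 0.12 SE, limma's adjusted p = 0.000179). PSBQ2, of the oxygen-evolving complex, stood at 1379, 1544 and 1528 FPKM in libraries labelled smxl4 smxl5 and at 2403, 1956 and 1916 FPKM in Col-0 (−0.49 ± 0.12 SE, limma's adjusted p = 0.00271). In none of the 3 genes did a library labelled smxl4 smxl5 reach the lowest Col-0 library.

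PSBS went the other way. It encodes the PSII protein that senses the pH of the lumen and switches on the dissipation of excess light as heat. PSBS stood at 1584, 1619 and 1545 FPKM in control libraries labelled smxl4 smxl5 and at 920.5, 859.6 and 883 FPKM in Col-0, with no overlap and a narrow spread in both groups (0.83 ± 0.10 SE, limma's adjusted p = 1.15e-06). After heat it stood at 2121, 2228 and 2465 FPKM in libraries labelled smxl4 smxl5 and at 1221, 1573 and 1146 FPKM in Col-0, again apart (0.80, limma's adjusted p = 2.13e-06). PSBS was also higher in smxl6 smxl7 smxl8, at 1264, 1617 and 1209 FPKM at control (0.61, limma's adjusted p = 9.86e-05, or 0.0516 with only the groups compared). Heated smxl6 smxl7 smxl8 had 1735, 1651 and 1649 FPKM (0.37, limma's adjusted p = 0.01, or 0.0564 and 0.0714 without Col-0 heat replicate 1 or 3 and 0.14 with only the groups compared). In ski2 dcl4 PSBS was lower, at 649.9, 668 and 718 FPKM at control (−0.39, limma's adjusted p = 0.00399) and 819, 918 and 903 FPKM after heat (−0.56, limma's adjusted p = 8.08e-05), and in ski2 dcl4 dcl2 it differed by −0.08 at control and −0.24 after heat (limma's adjusted p = 0.968 and 0.158).

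**Figure D3:**
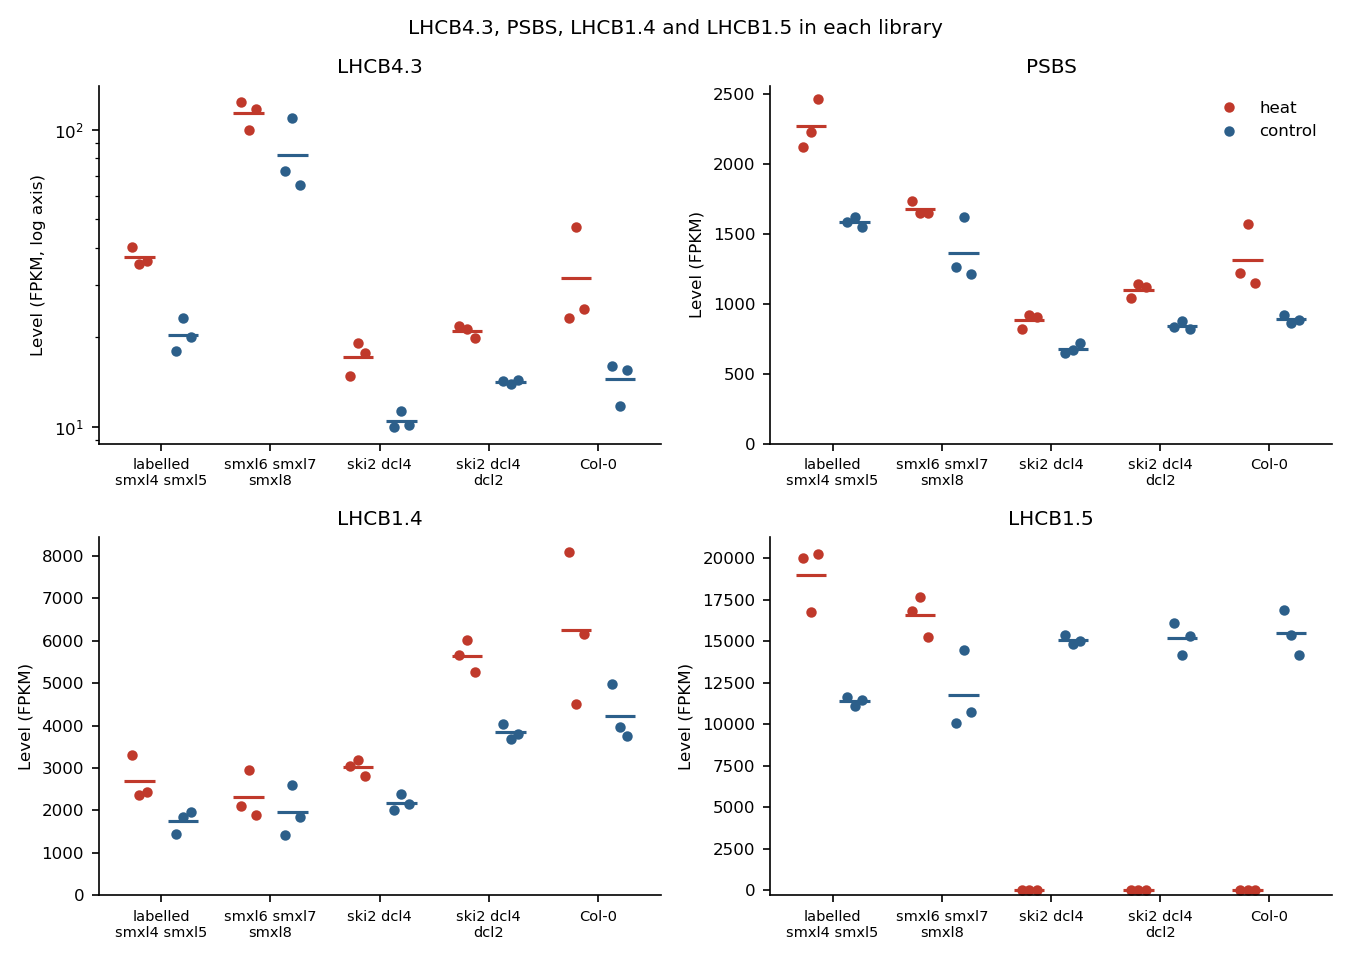
FPKM of LHCB4.3 (log axis), PSBS, LHCB1.4 and LHCB1.5 in each library, with 1 point per library and a bar at the mean of 3; heat stands left of control. LHCB4.3 lies between 64.9 and 124 FPKM in smxl6 smxl7 smxl8, PSBS is highest in libraries labelled smxl4 smxl5, and LHCB1.5 is listed at 0 in 3 heat groups.

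After heat many members were again lower in libraries labelled smxl4 smxl5. Of 40 members 24 were lower and 1 higher than in heated Col-0 (limma, where 17.2% of all genes were lower and 19.1% higher), with a median of −0.29. The lower ones were 4 of 6 LHCI, 7 of 12 LHCII, 10 of 12 PSI and 3 of 10 PSII genes. The LHCII sum over the 12 compared genes was 51705 ± 4047 FPKM under that label and 65615 ± 5975 FPKM in heated Col-0. With LHCB1.5, which is listed at 0 in heated Col-0, the order was reversed. The sums were then 70695 ± 5679 and 65615 ± 5975 FPKM, with overlapping libraries. The lower LHCII sum thus rests on leaving out LHCB1.5. LHCB1.4 stood at 3301, 2369 and 2432 FPKM in libraries labelled smxl4 smxl5 and at 8105, 4507 and 6164 FPKM in Col-0 (−1.19, limma's adjusted p = 0.000109), LHCB2.3 differed by −0.66 and PSAD2 by −0.63. With only these 6 libraries in the fit, 4 were lower, and without Col-0 heat replicate 2, 2 were higher.

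In smxl6 smxl7 smxl8 without heat, 5 of 40 members were lower and 2 higher than in Col-0 (limma, where 13.2% of all genes were lower and 13.4% higher), with a median of −0.14. The count rests on single libraries: 26 were lower without control replicate 2 of that genotype, which stood apart, 2 without its replicate 1, 3 without its replicate 3 and 0 with only the 6 libraries compared. The count of higher members was 5 without control replicate 1 of that genotype and 1 with only the 6 libraries compared. LHCB1.4 was the lowest, at 1421, 2601 and 1839 FPKM in smxl6 smxl7 smxl8 and 4971, 3965 and 3763 FPKM in Col-0, without overlap (−1.15 ± 0.20 SE, limma's adjusted p = 0.000239, or 0.062 with only the groups compared). PSAE2 (−0.59) and LHCB1.2 (−0.43, with an adjusted p of 0.0556 by limma without control replicate 1 of smxl6 smxl7 smxl8) followed. After heat 31 members were lower and 2 higher than in heated Col-0 (limma, where 12.1% of all genes were lower and 11.7% higher), with a median of −0.41. The lower ones were 6 of 6 LHCI, 11 of 12 LHCII, 10 of 12 PSI and 4 of 10 PSII genes, with LHCB1.4 (−1.42), LHCB2.3 (−0.75) and PSAG (−0.68) lowest. The LHCII sum over the 12 compared genes was 45783 ± 3928 FPKM in heated smxl6 smxl7 smxl8 and 65615 ± 5975 FPKM in heated Col-0. With LHCB1.5, listed at 0 in heated Col-0, the sums were 62346 ± 5145 and 65615 ± 5975 FPKM, with overlapping libraries. With only the libraries compared, 4 members were lower and 1 higher after heat, and 1 was higher without Col-0 heat replicate 1 or 3. Same-total rescaling gave 5 higher and 13 lower at control, where 2548 of the 21531 genes tested were higher and 2939 lower. It raised the share of higher calls among all calls after heat to 68.1%, against 49.1% without it.

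LHCB4.3 stood apart from all other members in smxl6 smxl7 smxl8. At control it was at 72.5, 109 and 64.9 FPKM in smxl6 smxl7 smxl8 and at 16.0, 11.7 and 15.5 FPKM in Col-0, and the lowest of the smxl6 smxl7 smxl8 libraries exceeded the highest Col-0 library several times over (log2 difference 2.41 ± 0.19 SE, limma's adjusted p = 1.66e-08). After heat it was at 124, 99.9 and 118 FPKM in smxl6 smxl7 smxl8 and at 23.2, 46.9 and 24.9 FPKM in Col-0, also apart (1.88 ± 0.19 SE, limma's adjusted p = 1.02e-06). The other copies of CP29 were not called higher. In smxl6 smxl7 smxl8 controls LHCB4.1 differed from Col-0 by −0.24 and LHCB4.2 by −0.13 (limma's adjusted p = 0.0895 and 0.439), and LHCB4.3 made up 1.53% of the summed LHCB4 transcripts there, against 0.242% in Col-0. In the libraries labelled smxl4 smxl5, LHCB4.3 ranged from 17.9 to 23.2 FPKM at control, above all Col-0 control libraries but not called (0.48, limma's adjusted p = 0.064).

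LHCB4.3 (AT2G40100, chromosome 2, 16745628 to 16747424 in TAIR10.1) lies 18285 bp from SMXL8 (AT2G40130), a gene that this genotype carries a mutation in and that stood at 0.429 FPKM in smxl6 smxl7 smxl8 controls and 1.00 FPKM in Col-0 controls. Within 25 kb of LHCB4.3, 12 other genes were tested, SMXL8 among them. At control 1 was higher and 4 lower (13.4% and 13.2% of all genes), and after heat 0 were higher and 3 lower (11.7% and 12.1%). Of the 4 lower at control, ELF4 (−2.13) and CZF1 (−1.29) were also lower in control libraries labelled smxl4 smxl5 (−2.45 and −1.63). SMXL8 (−0.48) and AT2G40113 (−0.48) were not called by limma under that label (−0.26 and 0.02). The nearest, AT2G40110 at 407 bp, averaged 12.6 FPKM in smxl6 smxl7 smxl8 and 11.5 FPKM in Col-0 (limma's adjusted p = 0.623). These neighbours were chosen after the value of LHCB4.3 was seen. Whether the position beside SMXL8 has a part in the higher level was not tested.

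Clock genes differed from Col-0 in these same genotypes. Of 10 clock genes 3 were higher and 7 lower in control libraries labelled smxl4 smxl5, with a median of −1.13, and likewise 3 and 7 in smxl6 smxl7 smxl8, with a median of −0.93. Of all genes, 15.3% were higher and 14.8% lower under the smxl4 smxl5 label, and 13.4% and 13.2% in smxl6 smxl7 smxl8. CCA1, a morning factor of the clock, averaged 21.5 ± 0.824 FPKM in control libraries labelled smxl4 smxl5 and 19.5 ± 2.79 FPKM in those of smxl6 smxl7 smxl8, against 9.69 ± 1.89 FPKM in Col-0 controls. It averaged 23.8 ± 5.82 FPKM in ski2 dcl4 controls and 11.4 ± 0.216 FPKM with dcl2 mutated as well. LHY, another morning factor, averaged 19.2 ± 0.494 FPKM in libraries labelled smxl4 smxl5 and 7.79 ± 0.556 FPKM in smxl6 smxl7 smxl8, where Col-0 had 1.02 ± 0.111 FPKM (log2 differences 3.33 and 2.12). GLK2 was lower by limma's test in both (−0.55 and −0.65), while GLK1 was called lower in libraries labelled smxl4 smxl5 (−0.58, limma's adjusted p = 0.0108) and not in smxl6 smxl7 smxl8 (−0.35, adjusted p = 0.124). The part of these differences in the photosystem transcripts was not tested.

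Related genes moved in both directions in these genotypes. In the control libraries labelled smxl4 smxl5 (15.3% of all genes higher and 14.8% lower), 3 of 14 chlorophyll synthesis genes were higher and 3 lower, 2 of 12 electron carrier and ATP synthase genes higher and 1 lower, and 4 of 10 antenna insertion genes lower. Of 8 photosynthesis regulators 2 were higher and 4 lower, 4 of 6 light-harvesting-like genes were higher, and 2 of 8 chlorophyll breakdown genes were lower. After heat 8 of 14 chlorophyll synthesis genes were higher and 2 lower in libraries labelled smxl4 smxl5 than in Col-0 (19.1% and 17.2% of all genes), with a median of 0.28. In heated smxl6 smxl7 smxl8 0 of the 14 were higher and 6 lower (11.7% and 12.1% of all genes), with a median of −0.22. At control in smxl6 smxl7 smxl8 (13.4% of all genes higher and 13.2% lower) the higher and lower counts were 1 and 2 of 14 for chlorophyll synthesis, 3 and 1 of 12 for electron carriers, 1 and 5 of 10 for antenna insertion, 0 and 3 of 8 for regulators, 1 and 0 of 6 for light-harvesting-like genes and 0 and 2 of 8 for chlorophyll breakdown. Root markers were higher and lower in 1 and 1 of 12 cases where smxl4 smxl5 is the label and in 1 and 3 of 12 in smxl6 smxl7 smxl8. The summed root markers of smxl6 smxl7 smxl8 ranged from 1799 to 2775 FPKM at control, against 1541 to 1694 FPKM in Col-0. Most of these sums was PYK10. Without PYK10 the order was reversed, with 77.7 to 104.7 FPKM in smxl6 smxl7 smxl8 and 107 to 114 FPKM in Col-0. Epidermis and guard cell markers were higher in 3 and lower in 1 of 8 cases where smxl4 smxl5 is the label. They were lower in 3 of 8 cases and higher in 0 in smxl6 smxl7 smxl8. Their sums were 460 to 486 FPKM in libraries labelled smxl4 smxl5 and 340 to 472 FPKM in smxl6 smxl7 smxl8, against 526 to 564 FPKM in Col-0. The part of these markers in the photosystem transcripts was not tested.

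In ski2 dcl4 the photosystem and antenna genes were lower than in Col-0 across all 4 complexes. Without heat 32 of 40 members were lower and 0 higher (limma, where 17.1% of all genes were lower and 16.1% higher, and all 40 differences were negative), with a median of −0.43. They were 4 of 6 LHCI, 9 of 12 LHCII, 12 of 12 PSI and 7 of 10 PSII genes. Over all 40 members the sum was 92832 ± 1127 FPKM in ski2 dcl4 and 124733 ± 10974 FPKM in Col-0. After heat 37 were lower and 0 higher (limma, where 17.2% of all genes were lower and 22.3% higher, again with 40 negative differences), with a median of −0.51. These were 5 of 6 LHCI, 11 of 12 LHCII, 12 of 12 PSI and 9 of 10 PSII genes. The same-total rescaling moved the median of all genes to 0.13 at control and 0.16 after heat, and 27 and 33 members were then lower. Of the 21531 genes tested, 2084 and 2134 were lower in that fit. Higher calls then made up 75.4% of all calls at control and 77.8% after heat, against 48.5% and 56.4% without rescaling.

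LHCB1.4 was again the lowest in ski2 dcl4, at 2000.3, 2374 and 2152 FPKM at control against 4971, 3965 and 3763 FPKM in Col-0, without overlap (−0.95 ± 0.20 SE, limma's adjusted p = 0.000926). PSAH2, a PSI subunit at which the mobile antenna docks, stood at 2111, 2151 and 2229.8 FPKM in ski2 dcl4 and at 4000.1, 3441 and 3332 FPKM in Col-0, also apart (−0.73 ± 0.11 SE, limma's adjusted p = 2.68e-05). LHCB4.1 stood at 2273, 2575 and 2383 FPKM in ski2 dcl4 and at 4397, 3831 and 3588 FPKM in Col-0 (−0.70 ± 0.11 SE, limma's adjusted p = 1.82e-05), with a wide gap between the groups. Its copy LHCB4.2 was not called, at 1753, 1754 and 1681 FPKM in ski2 dcl4 and 2230.4, 2011 and 1867 FPKM in Col-0 (−0.23, limma's adjusted p = 0.117), although these libraries did not overlap. After heat LHCB1.4 (−1.01), LHCB2.3 (−0.94) and PSBQ1 (−0.83) were lowest.

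**Figure D4:**
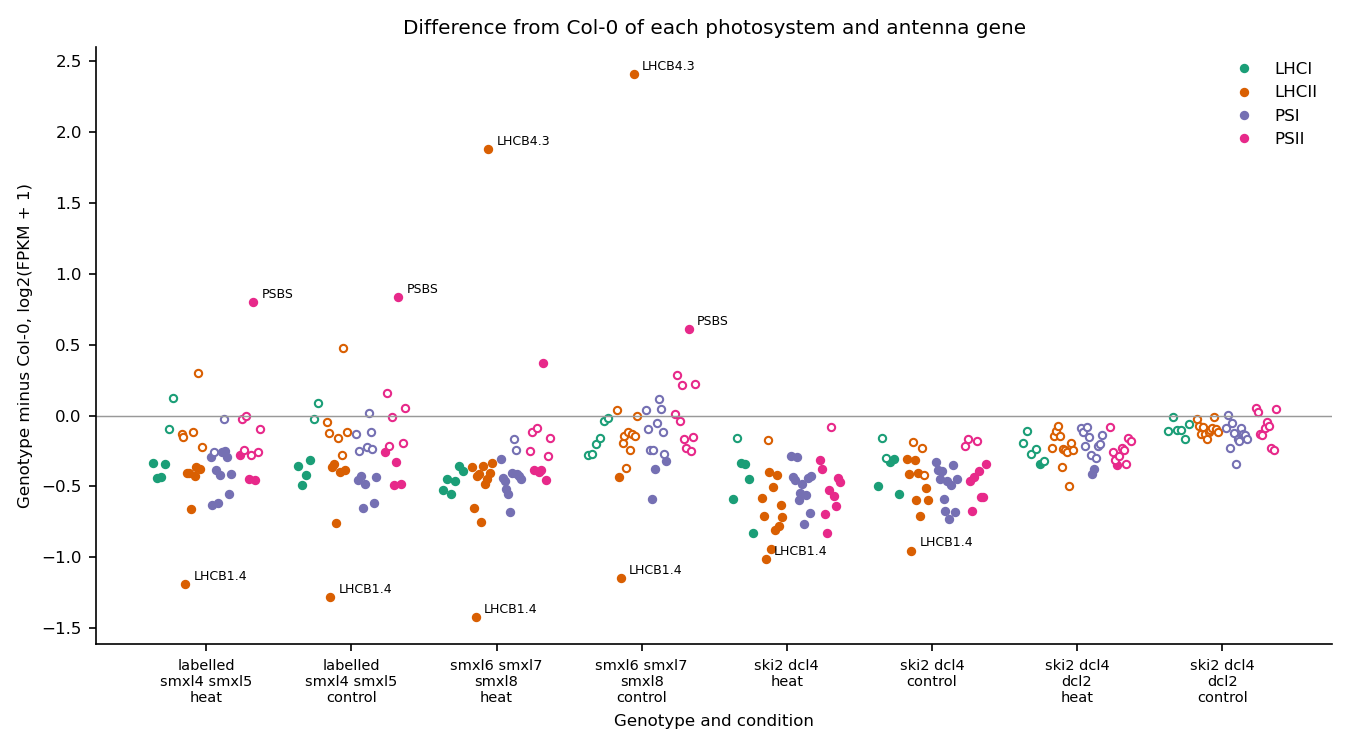
Log2 difference from Col-0 of each of the 40 members, on the log2(FPKM + 1) scale, by genotype and condition and coloured by complex; filled points were called by limma and open points were not. Points of ski2 dcl4 all lie below 0, those of ski2 dcl4 dcl2 have a median of −0.10 at control, and LHCB1.4, PSBS and LHCB4.3 leave the others in the smxl genotypes.

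Several lists of related genes were lower in ski2 dcl4 too. Of all genes, 17.1% were lower and 16.1% higher at control, and 17.2% lower and 22.3% higher after heat. At control 12 of 14 chlorophyll synthesis genes were lower (median −0.57), 11 of 12 electron carrier and ATP synthase genes (median −0.49), 6 of 10 antenna insertion genes and 4 of 6 light-harvesting-like genes, with 0, 0, 0 and 2 higher. After heat 12 of 14 and 12 of 12 of the first pair of lists were lower. Chlorophyll breakdown genes were instead higher in 3 of 8 cases at control, with 0 lower. Of 10 clock genes 2 were higher at control, CCA1 among them, and 0 lower, with the higher count near the share of all genes. Photosynthesis regulators were higher in 1 and lower in 2 of 8 cases at control, and higher in 4 and lower in 1 after heat. Root markers were higher in 0 and lower in 2 of 12 cases at control. Of 8 epidermis and guard cell markers 6 were lower and 1 higher at control, with sums of 369 to 410 FPKM in ski2 dcl4 and 526 to 564 FPKM in Col-0. The part of these markers in the lower photosystem transcripts was not tested.

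With dcl2 mutated in addition, fewer members were called against Col-0. In ski2 dcl4 dcl2 at control, limma called 0 of 40 members, where 0.172% of all genes were called lower and 1.49% higher at an adjusted p under 0.05. At an unadjusted p under 0.05 there were 5 members, a level for which no share of all genes is given here. The median was −0.10, and the sum was 116064 ± 2303 FPKM in ski2 dcl4 dcl2 and 124733 ± 10974 FPKM in Col-0. Without overlap between libraries, 11 of 40 members were lower and 0 higher at control (8.14% and 10.8% of all genes). After heat 4 members were lower (limma, where 2.98% of all genes were lower and 2.94% higher at an adjusted p under 0.05) and the median was −0.23. At an unadjusted p under 0.05 there were 22 members, again without a share of all genes at that level. All 40 differences were negative after heat, and 26 members were lower without overlap and 0 higher (13.5% and 10% of all genes). The 4 called were LHCA5 (−0.34), PSAH1 (−0.41), PSAH2 (−0.38) and PSBQ1 (−0.35). Leaving out Col-0 heat replicate 3 gave 9 and Col-0 heat replicate 2 gave 1, and leaving out Col-0 heat replicate 1 or any 1 of the 3 heat libraries of ski2 dcl4 dcl2 gave 2. Higher calls were 91.3% of all calls after heat with same-total rescaling and 91.6% with the same upper quartile, against 49.7% without rescaling.

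Set directly against ski2 dcl4, the members were higher in ski2 dcl4 dcl2. At control 25 of 40 were higher and 0 lower (limma, where 15.2% of all genes were higher and 11.2% lower, and all 40 differences were positive), with a median of 0.33. They were 2 of 6 LHCI, 7 of 12 LHCII, 8 of 12 PSI and 8 of 10 PSII genes. After heat 21 were higher and 0 lower (limma, where 15.6% of all genes were higher and 21.2% lower, with 39 positive differences), with a median of 0.28. LHCB1.4 stood at 4031, 3689 and 3809 FPKM in ski2 dcl4 dcl2 controls and at 2000.3, 2374 and 2152 FPKM in ski2 dcl4 controls, without overlap (0.82, limma's adjusted p = 0.00431). LHCB4.1 (0.60) and PSAH2 (0.55) followed, and after heat LHCB1.4 (0.90), LHCB2.3 (0.58) and LHCB1.2 (0.57) differed most. Without ski2 dcl4 dcl2 control replicate 1 or ski2 dcl4 control replicate 1, 15 and 16 members were higher at control, and without the filter on low values 15 were at control and 13 after heat. Same-total rescaling left 16 higher at control, with the median of all genes at −0.10 and 27.6% of all calls higher, against 57.6% without rescaling. Of the 21531 genes tested, 1892 were higher in that fit.

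Chlorophyll synthesis genes were also higher in ski2 dcl4 dcl2 than in ski2 dcl4, 11 of 14 in each condition (median 0.54 at control), as were 9 of 12 electron carrier and ATP synthase genes at control and 7 after heat. Antenna insertion genes were higher in 7 of 10 cases at control and in 4 after heat, with 1 lower after heat. Chlorophyll breakdown genes were lower in 4 of 8 cases in both conditions. Of all genes, 15.2% were higher and 11.2% lower at control, and 15.6% higher and 21.2% lower after heat. All comparisons of genotypes with Col-0 share the Col-0 libraries, and those of ski2 dcl4 dcl2 with Col-0 and with ski2 dcl4 share the ski2 dcl4 dcl2 libraries, so their values stand side by side and are not independent.

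The balance within gene pairs that encode the same subunit varied between groups. These shares are given as a description and were not tested. PSBQ2, with 76.58% identity to PSBQ1 in coding sequence, made up 46.1% ± 1.1 of the pair's FPKM in control libraries labelled smxl4 smxl5 and 47.8% ± 1.32 of it for smxl6 smxl7 smxl8. The share was 58.5% ± 0.634 in ski2 dcl4 controls and 55.2% ± 1.1 with dcl2 mutated as well, against 54.4% ± 0.858 in Col-0 controls. PSBQ1 was at 1585, 1746 and 1878 FPKM in libraries labelled smxl4 smxl5 and 1933, 1679.8 and 1624 FPKM in Col-0 (−0.01, limma's adjusted p = 0.98), while PSBQ2 was lower there. In ski2 dcl4 it was PSBQ1 that differed more, at 1074, 1124 and 1079 FPKM (−0.67, limma's adjusted p = 1.94e-05), against −0.43 for PSBQ2. The share of PSBQ2 ranged from 44.8% to 46.9% in control libraries labelled smxl4 smxl5 and from 57.9% to 59.1% in ski2 dcl4, against 53.8% to 55.4% in Col-0.

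PSBO2, 83.38% identical to PSBO1, took a larger mean share of its pair after heat in each genotype. In Col-0 it was 28.6% ± 2.1 after heat and 24.2% ± 0.593 at control, and in smxl6 smxl7 smxl8 30.5% ± 0.246 after heat and 28.0% ± 1.32 at control. PSBO1 stood at 6227, 5635 and 5425 FPKM in heated Col-0 and at 4025, 3668 and 3563 FPKM in Col-0 controls (0.62, limma's adjusted p = 7.33e-06), against 0.94 for PSBO2. In the control libraries labelled smxl4 smxl5, PSBO1 was called lower than in Col-0 (−0.26, adjusted p = 0.0423 by limma) and PSBO2 was not called (0.16, adjusted p = 0.301 by limma).

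Shares also varied in the PSI pairs. PSAD2, 86.28% identical to PSAD1, made up 46.5% ± 0.249 of its pair in heated Col-0 and 43.1% ± 0.278 in Col-0 controls, and 37.7% ± 1.07 in control libraries labelled smxl4 smxl5. PSAD1 stood at 2444, 2630.1 and 2842 FPKM in those libraries and at 3065, 2827 and 2750.1 FPKM in Col-0, which overlapped (−0.13, limma's adjusted p = 0.396), while PSAD2 stood at 1402, 1619 and 1775 FPKM in those libraries and at 2309, 2170.0 and 2068 FPKM in Col-0 (−0.45, limma's adjusted p = 0.00838). PSAE2, 76.87% identical to PSAE1, made up 37.7% ± 0.244 of its pair in libraries labelled smxl4 smxl5 and 35.1% ± 2.75 of it for smxl6 smxl7 smxl8, where Col-0 had 40.7% ± 0.839, all at control. PSAE1 stood at 1998, 1986 and 2015 FPKM in those labelled smxl4 smxl5 and at 2598, 2348 and 2196 FPKM in Col-0 (−0.25, limma's adjusted p = 0.0886). PSAE2 stood at 1219, 1204 and 1204 FPKM in those labelled smxl4 smxl5 and at 1848, 1559 and 1499.6 FPKM in Col-0 (−0.43, limma's adjusted p = 0.00228). For both genes these libraries lay below all Col-0 libraries. PSAH2, 86.99% identical to PSAH1, held 70.5% ± 1.31 of its pair in ski2 dcl4 and 74.1% ± 0.624 in Col-0 at control. PSAH1 stood at 921, 932 and 869 FPKM in ski2 dcl4 and at 1347, 1233 and 1179 FPKM in Col-0 (−0.46, limma's adjusted p = 0.000348).

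**Figure D5:**
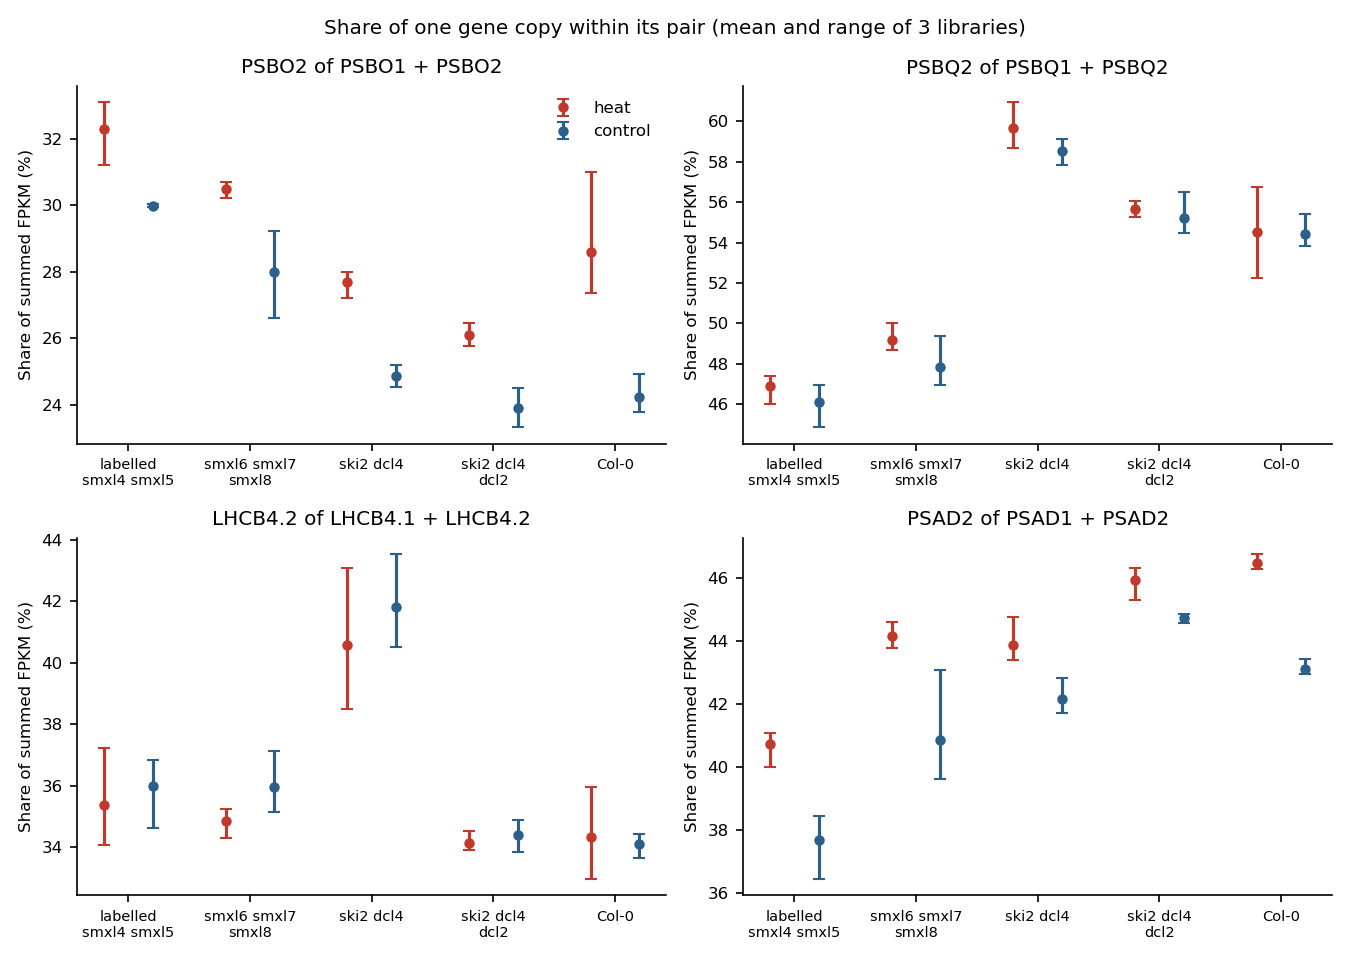
Share of 1 copy in the summed FPKM of its pair, in percent, for PSBO, PSBQ, LHCB4 and PSAD, with points at the mean and bars from the lowest to the highest of 3 libraries; heat stands left of control and the axes do not start at 0. The PSBO2 and PSAD2 shares are higher after heat than at control on average in each genotype, and PSBQ2 and LHCB4.2 take their largest shares in ski2 dcl4.

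LHCB4.2, 81.1% identical to LHCB4.1, made up 41.8% ± 1.57 of these copies in ski2 dcl4 and 34.4% ± 0.530 with dcl2 mutated as well, against 34.1% ± 0.398 in Col-0 at control. The ski2 dcl4 libraries, at 40.5% to 43.5%, lay above those of both other genotypes. LHCB4.3 has 64.97% and 65.35% identity to the other copies, so its reads are less likely to be confused with theirs.

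The rare LHCI genes LHCA5 and LHCA6, whose proteins link photosystem I to the NDH complex of cyclic electron flow, followed the others with heat. LHCA5 stood at 226, 244 and 207 FPKM in heated Col-0 and at 139, 126 and 127 FPKM in Col-0 controls (0.78, limma's adjusted p = 7.87e-09). LHCA6 stood at 136, 154 and 116 FPKM in heated Col-0 and at 90.1, 78.4 and 73.0 FPKM in Col-0 controls (0.74, limma's adjusted p = 6.39e-06). In both genes each heat library exceeded each control library. Against Col-0 controls, LHCA6 differed by 0.09 and LHCA5 by −0.02 in control libraries labelled smxl4 smxl5 (limma's adjusted p = 0.599 and 0.856), where 4 of the other LHCI genes were lower. In ski2 dcl4, LHCA6 had the largest negative difference of the LHCI genes, at 51.9, 53.9 and 57.2 FPKM at control, below all Col-0 libraries (−0.55, limma's adjusted p = 0.000565), and at 68.7, 83.8 and 74.7 FPKM after heat (−0.83, limma's adjusted p = 3.75e-06). In ski2 dcl4 dcl2 LHCA6 was higher than in ski2 dcl4, at 74.5, 79.2 and 77.5 FPKM at control (0.50, limma's adjusted p = 0.00209).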

How the data were processed

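The deposited table holds 1 value per gene and library, which were read as FPKM made by the authors: values are not whole numbers, and no header or label states the unit. Bowtie is named without a version in the submitters' processing notes; the read counter, the build and its gene models are not given in these sources. Members were matched by locus, and positions and sequences come from the RefSeq annotation of TAIR10.1, which may not be the authors' build.

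Groups came from the labels. The planned count test was left out, since FPKM are not counts. Values were transformed as log2(FPKM + 1), which understates changes of low genes, and 21531 genes that reached 1 FPKM in 3 or more libraries entered the fit. limma 3.58.1 in R 4.3.3, with an intensity trend, was fitted to all 30 libraries with 1 mean per group and checked on simulated data. P-values were adjusted by Benjamini-Hochberg over all genes in each of 19 comparisons and called under 0.05. All log2 values of genes come from this fit. Depth is not given; the reads behind an FPKM were estimated from the smallest steps. Alternatives were another pseudocount (0.1), no filter, rescaling to the same total or upper quartile, a fit of only the groups compared, the replicate number as a block, and leaving out each library.

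Replicate numbers did not pair the libraries: deviations from group means correlated at −0.01 on average between libraries of the same number in different groups. Values per library are given for the most changed called member of each complex in 2 comparisons (heat in Col-0 and the libraries labelled smxl4 smxl5 against Col-0 at control) and for set gene pairs, and elsewhere the 3 largest called changes are named. Other genes were named as the 2 of each list with the smallest adjusted p in heated Col-0, plus CCA1, LHY, GLK1 and GLK2. PSBX, LHCA1, LHCB1.2 in libraries labelled smxl4 smxl5, CAO and PYK10 were singled out after their values were seen. Members, lists and tests were chosen with earlier results of these data known.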

Additional observations from a re-analysis of the deposited data

How the results depend on the processing

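The named changes kept their direction: of 306 values under other settings 288 kept their call and 18 lost it, of 306 with 1 library left out 293 kept it and 13 lost it, and 0 changed sign. They were picked as the largest called changes in these same data, which favours kept calls, so this tally is a description and not a test. Counts of called members moved more. With the same total per library, 7 members rose with heat in smxl6 smxl7 smxl8, with 25 in ski2 dcl4; at control 2 were higher in libraries labelled smxl4 smxl5, 5 higher and 13 lower in smxl6 smxl7 smxl8 and 1 lower in ski2 dcl4 dcl2, all against Col-0; in heated ski2 dcl4 dcl2 2 were lower; and 16 were higher in ski2 dcl4 dcl2 than in ski2 dcl4 at control. With the same upper quartile, 2 were higher in control libraries labelled smxl4 smxl5 and 2 lower in heated ski2 dcl4 dcl2. Without the filter, 3 were lower in smxl6 smxl7 smxl8 at control, 2 lower in heated ski2 dcl4 dcl2, and 15 and 13 higher in ski2 dcl4 dcl2 than in ski2 dcl4 at control and after heat. With only the groups compared, 2 rose with heat in smxl6 smxl7 smxl8. Against Col-0 in that fit, 13 and 4 were lower in libraries labelled smxl4 smxl5 at control and after heat, 1 was higher and 0 lower in smxl6 smxl7 smxl8 at control, 1 higher and 4 lower there after heat, and 0 lower in heated ski2 dcl4 dcl2. The replicate block moved only the lower count of heated smxl6 smxl7 smxl8, to 32 from 31, and same-numbered libraries did not pair. The cause of these moves was not tested. No share of all genes called is given for fits without the filter, with only the groups compared or with 1 library left out. Counts from these fits thus do not show whether the members moved more than all genes did.

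Leaving out 1 library at a time gave 21 to 39 rises with heat in smxl6 smxl7 smxl8 and 37 to 40 in the other genotypes. Against Col-0 at control it gave 13 to 21 lower in libraries labelled smxl4 smxl5, 2 to 26 lower and 2 to 5 higher in smxl6 smxl7 smxl8, and 24 to 33 lower in ski2 dcl4. Against heated Col-0 it gave 16 to 27 lower and 1 to 2 higher in libraries labelled smxl4 smxl5, 21 to 32 lower and 1 to 2 higher in smxl6 smxl7 smxl8, 32 to 37 lower in ski2 dcl4 and 1 to 9 lower in ski2 dcl4 dcl2. Between ski2 dcl4 dcl2 and ski2 dcl4 it gave 15 to 20 higher at control and 14 to 19 after heat. For the difference in heat effect of smxl6 smxl7 smxl8 it gave 0 to 5 lower.

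The summed LHCII level in ski2 dcl4, heat over control, was 0.934 with all 14 members, below 1 where the sum of the 12 compared members was higher after heat, since LHCB1.5 is listed at 0 in the heated libraries.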
